A study of Homo sapiens with 4 samples.

Results

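LYPD6B, LYPD6, LYPD1, LYPD3, LY6E, LY6K, PLAUR and CD59 encode cell surface proteins of the Ly6/uPAR family, and all 8 were found in a count table of 61541 genes by matching the Ensembl identifier to the gene symbol. The genes were chosen because LYPD6B and LY6E were lower in cadmium-treated cells, so the change of these genes is given as a description, and LYPD6 was included as the neighbour of LYPD6B. RNA-seq had been performed on the human breast cancer cell line MDA-MB-231 in 2 groups of 2 libraries (n = 2 in each). Cadmium-treated cells had been selected by serial passage in medium with cadmium sulfate, raised to 10 µM, and control cells are labelled as having no treatment. Whether the cadmium-resistant cells descended from a single clone is not given in the sources used here. Control libraries are called control 2 and control 3 after the numbers in the count table, and cadmium libraries are called cadmium 1 and cadmium 2. The labels call the controls biological replicates and the cadmium libraries replicates, so p-values may measure a spread that is partly technical.

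Proteins of this family carry a fold of finger-like loops held together by disulfide bonds, and most are tethered to the outer membrane by a glycosylphosphatidylinositol (GPI) anchor. Some members bind nicotinic acetylcholine receptors and tune their response, as LYNX1 is known to do, and LYPD6 is known to act on Wnt co-receptors. PLAUR is the receptor of the protease urokinase, and CD59 blocks the last step of complement attack on the cell's own membrane. In breast and other carcinoma cells PLAUR is studied for its part in invasion.

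The libraries held between 51934729 and 61916007 reads assigned to genes, and counts were divided by a size factor for each library to give normalized counts. The controls were much further apart than the cadmium libraries. Of 14357 genes whose normalized counts averaged at least 50, 16.1% differed by more than 2-fold between the controls, while 0.745% did so between the cadmium libraries. AXL, a basal marker of this mesenchymal-like line, had between 88801 and 96788 normalized counts over the libraries. The estrogen receptor gene ESR1, a luminal marker, had at most 18.9. All 7 listed luminal genes averaged at least 10 normalized counts, so ESR1 does not stand for the level of that list. Of the marker lists, 0 of 5 basal and 0 of 7 luminal genes were called. DESeq2 was used to compare the groups, and a gene was called at an adjusted p-value below 0.1. By that rule 106 of 19834 tested genes were downregulated, or 0.534%, and 119 were upregulated, or 0.600%. With upper-quartile size factors the split was 88 lower and 152 higher.

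All 8 genes passed the filter of DESeq2 on low counts. Of these, 3 were called lower (LYPD6B, LY6E and LYPD6) and 0 were called higher, and nothing is read from that count because LYPD6B and LY6E were picked for it. In 4 genes, the called ones and LYPD3, both cadmium libraries lay below both controls, a pattern that 19.9% of all tested genes showed. In LYPD1, LY6K, PLAUR and CD59 the groups overlapped.

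LYPD6B and LYPD6 lie next to each other on the plus strand of chromosome 2 (hg38), and both encode Ly6/uPAR proteins with a receptor-modulating role. LYPD6B (ENSG00000150556) spans 149038107 to 149215262 and LYPD6 (ENSG00000187123) spans 149329985 to 149474138, so that 114.7 kb separate them. No exon of either gene overlapped an exon of another gene in the count table, so overlap does not affect their counts. The sequences before their RefSeq transcript starts (GRCh38.p14) are shown because the neighbours differ there in CpG content, with each CpG in capitals and 250 bases printed up to the start.
LYPD6B, start at 149077522, chr2:149077272-149077521, plus strand: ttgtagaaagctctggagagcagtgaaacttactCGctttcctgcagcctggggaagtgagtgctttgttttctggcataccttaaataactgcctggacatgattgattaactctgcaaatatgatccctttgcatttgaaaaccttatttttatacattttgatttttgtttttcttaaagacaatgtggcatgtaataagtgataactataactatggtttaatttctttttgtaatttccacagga
LYPD6B, start at 149118174, chr2:149117924-149118173, plus strand: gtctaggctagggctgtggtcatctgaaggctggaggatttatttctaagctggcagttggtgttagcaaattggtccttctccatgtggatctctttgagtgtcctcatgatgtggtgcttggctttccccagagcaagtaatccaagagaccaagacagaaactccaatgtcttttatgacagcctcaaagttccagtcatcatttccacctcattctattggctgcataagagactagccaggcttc
LYPD6, start at 149329985, chr2:149329735-149329984, plus strand: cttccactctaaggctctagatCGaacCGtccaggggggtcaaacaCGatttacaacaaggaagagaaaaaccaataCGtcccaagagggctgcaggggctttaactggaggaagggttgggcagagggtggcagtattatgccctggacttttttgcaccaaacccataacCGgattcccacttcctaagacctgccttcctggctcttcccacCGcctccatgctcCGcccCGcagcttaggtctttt
LYPD6, start at 149330587, chr2:149330337-149330586, plus strand: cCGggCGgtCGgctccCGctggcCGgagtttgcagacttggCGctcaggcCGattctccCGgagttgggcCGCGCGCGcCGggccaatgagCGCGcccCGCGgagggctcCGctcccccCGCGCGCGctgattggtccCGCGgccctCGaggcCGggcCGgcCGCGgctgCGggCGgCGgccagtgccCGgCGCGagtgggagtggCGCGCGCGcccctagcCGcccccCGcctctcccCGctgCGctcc

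In windows of 300 bases that add 50 bases after the start, both LYPD6B windows held 1 CpG, which 11% of 35116 RefSeq promoter windows matched or fell below. In the second LYPD6B window that CpG lies after the start, so the printed run has no capitals. The LYPD6 windows held 11 and 49 CpGs, and the median over all windows was 14. At least 49 CpGs were found in 1.60% of windows. Counts were summed over all exons of a gene, so the start that was used cannot be told from them. The annotated LYPD6B span begins upstream of both printed windows.

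Motifs linked to the study's question were searched on both strands of these windows. The core of the metal response element bound by MTF-1, written TGCACNC or TGCGCNC, was absent from both LYPD6B windows. It occurred in a LYPD6 window as TGCGCTC, beginning 8 bases before the start, and 29.6% of all windows held a match. The AP-1 motif TGANTCA, found in 7.71% of all windows, and the forkhead motif TGTTTAC, found in 3.42%, matched none of the 4 windows. PLAUR had an AP-1 match, TGAGTCA, beginning 186 bases before its start. Among the RefSeq windows of the other genes, AP-1 matches were also found in CD59 and LYPD1. The metal response element core matched in PLAUR as TGCACCC, beginning 229 bases before the start, and in a CD59 window 6 bases before the start. A match is a description of letters and does not show binding.

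LYPD6B was expressed at 533 normalized counts in control 2 and 435 in control 3, and at 25.9 in cadmium 1 and 19.7 in cadmium 2. Both cadmium libraries were far below both controls. In such bulk libraries fewer expressing cells and less RNA per cell cannot be told apart. The mean was 484 ± 69.2 in control cells and 22.8 ± 4.34 in cadmium-treated cells (SD, n = 2 each), which is 21.2-fold lower. The fitted log2 fold change was -4.41 ± 0.42 (SE), and over the 4 cadmium-to-control pairings of libraries the log2 ratio of normalized counts plus 1 lay between -4.69 and -4.02. The raw counts behind the low group were 26 and 20 reads. Counting error alone gave a cadmium to control ratio of 0.0468 with an exact 95% interval from 0.0341 to 0.0630. Each mate of a pair was counted, so that interval is too narrow.

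LYPD6 moved in the same direction by a smaller amount. Its level in normalized counts reached 1034 in control 2 and 1081 in control 3, against 282 in cadmium 1 and 516 in cadmium 2. The controls were close to each other, and the cadmium libraries, although both below them, differed by 1.83-fold. Its log2 fold change was -1.41 ± 0.38 (SE), at an adjusted p in DESeq2 of 0.0337. This call was lost when any library was left out, with log2 fold changes from -1.91 (without cadmium 2) to -1.04 (without cadmium 1). It was also lost under edgeR's quasi-likelihood test, with an adjusted p-value of 0.620.

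Read per kilobase of exon, LYPD6B reached 72.4% of the LYPD6 level in control 2 and 56.5% in control 3. In cadmium 1 it reached 12.9% of the LYPD6 level and in cadmium 2 5.37%. The log2 fold change of LYPD6B minus that of LYPD6 was -3.001, while the log2 ratio between the genes had a pooled standard deviation of 0.66 between libraries of a group. The difference was -3.58 without cadmium 1 and -2.32 without cadmium 2. It carries no test because LYPD6B was chosen for its fall.

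**Figure D1:**
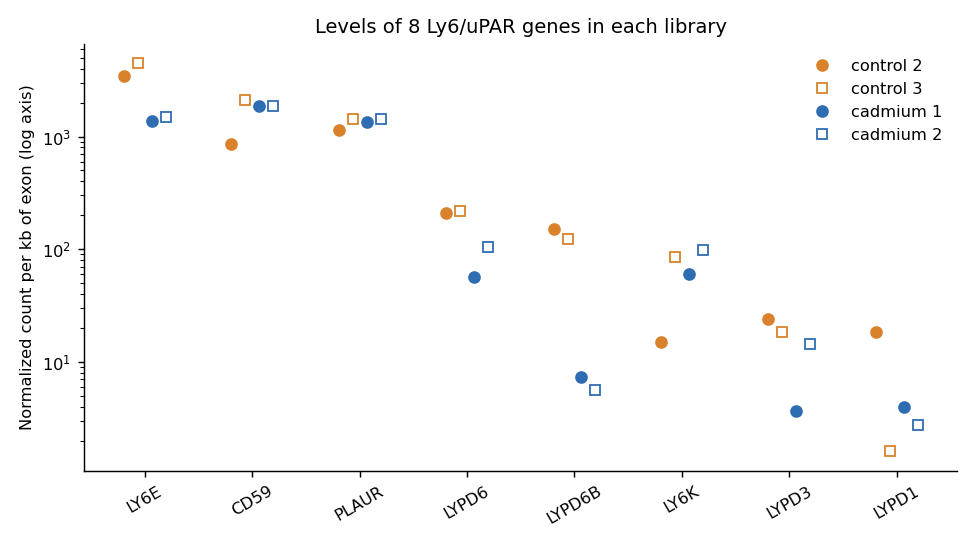
Normalized count per kilobase of exon (log axis) of the 8 genes in each library, ordered by the control mean, with orange points for control and blue points for cadmium libraries. LYPD6B drops from 151 and 123 to 7.31 and 5.58, while LYPD1 and LY6K differ most between the controls, by 11.6-fold and 5.69-fold, and the level of LY6K is too low because most of its exon bases are shared.

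The genes around LYPD6B were compared to see how far the change extended. The 10 genes on each side with normalized counts averaging at least 50 had a median change (log2) of -0.06, and without LYPD6 the other 19 had a median of -0.05. The nearest genes upstream were an unnamed gene (ENSG00000289474), EPC2 and MBD5, with log2 fold changes of -0.05, 0.15 and -0.03. Downstream of LYPD6 came MMADHC, which acts in vitamin B12 metabolism, with a log2 fold change of -0.08. None of these 4 genes was called. Of all 20 neighbours 2 were called, LYPD6 as lower and KYNU, a kynurenine pathway enzyme, as higher. Over all tested genes 0.534% were called lower and 0.600% higher. LYPD6 had been included as the neighbour of LYPD6B, so nothing is read from that count. KYNU, named after its values were seen, starts 6.16 Mb upstream. It had 46.4 and 42.5 normalized counts in the controls against 171 and 201 in the cadmium libraries. Both control values were below the neighbour minimum of 50, so its place among the neighbours rests on the group where it was high.

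LY6E (ENSG00000160932, chromosome 8, 143017982 to 143023832), an interferon-inducible membrane protein, was the most abundant of the 8 genes per kilobase in control cells. It had 9032 normalized counts in control 2 and 11767 in control 3, against 3624 in cadmium 1 and 3948 in cadmium 2. Both cadmium libraries were below both controls, and libraries of a group were close to each other. The mean was 10400 ± 1934 in control cells and 3786 ± 229 in cadmium-treated cells (SD, n = 2 each), which is 2.75-fold lower, with a log2 fold change of -1.46 ± 0.28 (SE). The pairings gave log2 ratios between -1.70 and -1.19. The log2 fold change of LY6E was -1.40 without cadmium 1 and -1.52 without cadmium 2. It was -1.64 without control 2 and -1.27 without control 3. Whether LY6E passed the DESeq2 threshold depended on which group was left with 1 library, so nothing is read from passing. A divergent transcript on the other strand shared 3.34% of the exon bases of LY6E.

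The 20 neighbours of LY6E had a median change (log2) of -0.06, and 1 of them was called lower, beside 0.534% of all tested genes. That gene was LYNX1, which encodes a modulator of nicotinic receptors and starts 0.25 Mb away with no other gene at 50 normalized counts or more between them. LYNX1 had 129 normalized counts in control 2 and 48.9 in control 3, against 11.9 in cadmium 1 and 12.8 in cadmium 2. Its cadmium libraries were alike and its controls differed. LYNX1 reached the neighbour minimum of 50 through its controls, so its place among the neighbours rests on the group where it was high. Its log2 fold change was -2.84 ± 0.76 (SE), at an adjusted p in DESeq2 of 0.0287, and edgeR gave an adjusted p-value of 0.620. LYNX1 was no longer called by DESeq2 when each pair of mates was taken as 1 count.

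**Figure D2:**
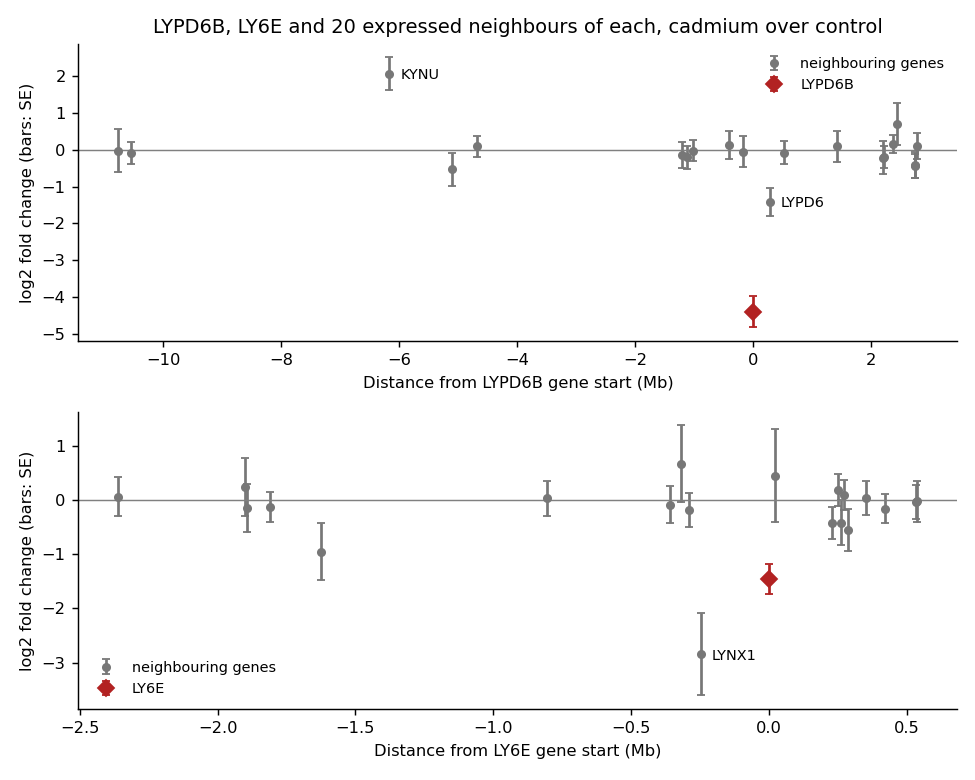
log2 fold change (cadmium over control, bars show the standard error) against distance in Mb from the start of LYPD6B (upper panel) or LY6E (lower panel) for 20 neighbouring genes of each. Most neighbours lie near 0, and the labelled neighbours are those called at a DESeq2 adjusted p-value below 0.1.

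LY6K (ENSG00000160886, chromosome 8, 142700111 to 142705127), a cancer-testis gene, did not follow LY6E. Its level in normalized counts reached 60.6 in control 2 and 345 in control 3, against 246 in cadmium 1 and 396 in cadmium 2. The controls differed by 5.69-fold and enclosed cadmium 1. The log2 fold change was 0.67 ± 0.71 (SE), at an adjusted p in DESeq2 of 1.00. Without control 3 the log2 fold change of LY6K was 2.39, and without control 2 it was -0.11. An antisense gene, LNCOC1, overlapped 80.8% of the exon bases of LY6K, and reads in that stretch were not counted for either gene, so its level per kilobase is too low.

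LYPD3 (ENSG00000124466, chromosome 19, 43460787 to 43465608), an adhesion protein close in domain plan to PLAUR, had 58.7 and 45.7 normalized counts in the controls. In cadmium 1 it had 8.96 and in cadmium 2 35.5. Both values were below the controls, but they differed by 3.97-fold. That was more than all but 0.0905% of genes with a mean of at least 50 differed between the cadmium libraries. LYPD3 averaged 37.2, below that minimum, where counting error is larger. Its log2 fold change was -1.23 ± 0.85 (SE), at an adjusted p in DESeq2 of 0.927. It was -0.56 without cadmium 1 and -2.55 without cadmium 2.

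LYPD1 (ENSG00000150551, chromosome 2, 132643286 to 132671579), known to act on neuronal nicotinic receptors, had controls far apart. It had 73.8 normalized counts in control 2 and 6.38 in control 3, an 11.6-fold difference, against 15.9 and 10.9 in the cadmium libraries. Of genes with a mean of at least 50, 1.41% exceeded that difference. LYPD1 averaged 26.7, below that minimum, where counting error is larger. The cadmium libraries lay between the controls. The log2 fold change of -1.58 had an SE of 1.17, at an adjusted p in DESeq2 of 0.950, and it was 1.07 without control 2. Without control 3 it was -2.47. Strand was ignored in counting, and exons of GPR39 on the other strand overlapped 29.7% of its exon bases, where reads were counted for neither gene.

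PLAUR (ENSG00000011422, chromosome 19, 43646095 to 43670547) showed little difference between the groups. Its normalized counts reached 5123 in control 2 and 6418 in control 3, against 6031 in cadmium 1 and 6394 in cadmium 2, so both cadmium libraries fell inside the control range. Its log2 fold change was 0.11 ± 0.27 (SE), at an adjusted p in DESeq2 of 1.00, and the pairings lay between -0.09 and 0.32.

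CD59 (ENSG00000085063, chromosome 11, 33703010 to 33736479) had 9081 normalized counts in control 2 and 22103 in control 3. The cadmium libraries had 19656 and 19596, and they lay inside the control range. Between these libraries 98.1% of genes with a mean of at least 50 showed a larger difference. The log2 fold change was 0.33 ± 0.43 (SE), at an adjusted p in DESeq2 of 1.00. Without control 3 the log2 fold change of CD59 was 1.10, and without control 2 it was -0.17. With 1 control left, the fit takes its spread from the cadmium libraries alone, so no call is read from it.

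**Figure D3:**
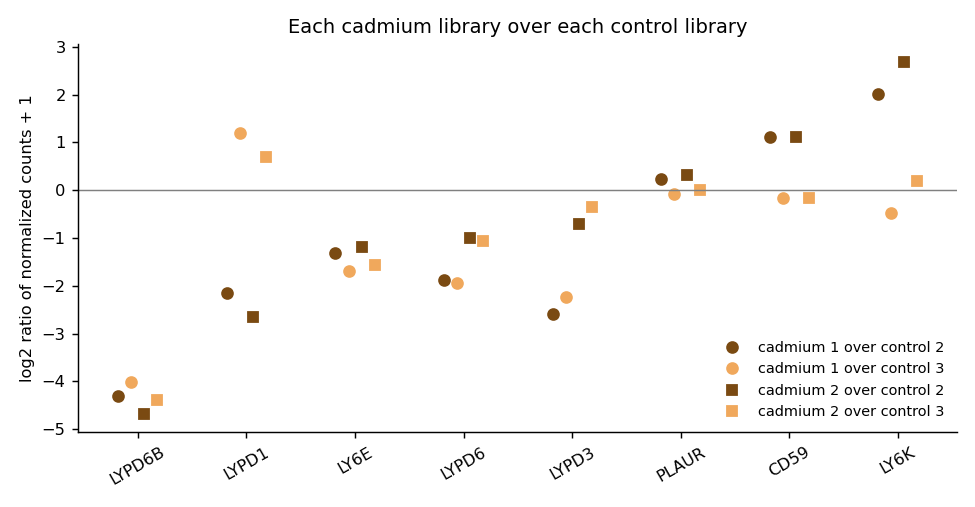
log2 ratio of normalized counts (plus 1) for each cadmium library over each control library, in the order of the fitted change, with dark points for control 2 and light points for control 3. All 4 pairings are below 0 for LYPD6B, LY6E, LYPD6 and LYPD3, and the pairings of LYPD1, CD59 and LY6K separate by control library.

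In control cells the mean levels per kilobase ran from LY6E (3942 ± 733) through CD59 (1477 ± 872), PLAUR (1295 ± 205), LYPD6 (213 ± 6.70), LYPD6B (137 ± 19.6), LY6K (50.02 ± 49.6) and LYPD3 (21.2 ± 3.71) to LYPD1 (10.1 ± 11.98), as normalized counts per kilobase (SD, n = 2). CD59 and PLAUR did not differ beyond their spread, nor did LY6K, LYPD3 and LYPD1 over their full exon length. In cadmium-treated cells CD59 (1859 ± 3.98) stood above LY6E (1435 ± 87.0) and PLAUR (1394 ± 57.5), and those last genes did not differ beyond their spread. LYPD6 (80.2 ± 33.4) and LY6K (79.2 ± 26.2) came next. The place of LY6K depends on the length used, a choice added after seeing the data. Over the 778 of its 4049 exon bases that no other gene shares it reached 260 ± 258 normalized counts per kilobase in control cells, above LYPD6 by less than its own spread, and 412 ± 136 in cadmium-treated cells, above LYPD6. LYPD6B had fallen to 6.45 ± 1.23 and lay between LYPD3 (9.02 ± 7.62) and LYPD1 (3.37 ± 0.900), below LYPD3 by less than the spread of LYPD3.

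The wider family was examined with a list of 36 genes, of which 35 were matched in the table and LY6S was not analysed here. Reads were absent from every library for 12 of them, among them SLURP1, LYPD2 and GPIHBP1, and 15 had normalized counts averaging at least 10. Of the 16 that DESeq2 tested, 4 were lower (LYPD6B, LY6E, LYNX1 and LYPD6) and 1 was higher, beside 0.534% and 0.600% of all tested genes. LYPD6B and LY6E are the genes that led to the choice of this family, so nothing is read from that count. The higher gene was LYPD5 on chromosome 19, named after its values were seen. It had 2 and 0 reads in the controls and 30 and 41 in the cadmium libraries, a ratio of 35.1 with an exact 95% interval from 9.38 to 296 that covers counting error only. Its DESeq2 adjusted p-value was 0.0416, and it passed the count filter because of its cadmium reads and was no longer called when each pair of mates was taken as 1 count. The median log2 fold change of the 15 genes was 0.24, beside -0.03 over 18871 genes at the same minimum, with 6 genes below 0 and 9 above.

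The family genes are clustered in the genome, and genes of a cluster were not all called. On chromosome 8 a stretch of 0.547 Mb holds 12 of them, from PSCA to GPIHBP1, of which 6 had no read and 3 (LY6K, LYNX1 and LY6E) had a mean of at least 10. LYNX1 and LY6E were lower there while LY6K was not called. On chromosome 19, LYPD3 and PLAUR were not called while LYPD5 was higher. PINLYP, also on chromosome 19, had a log2 fold change of 0.97, at an adjusted p in DESeq2 of 0.760.

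**Figure D4:**
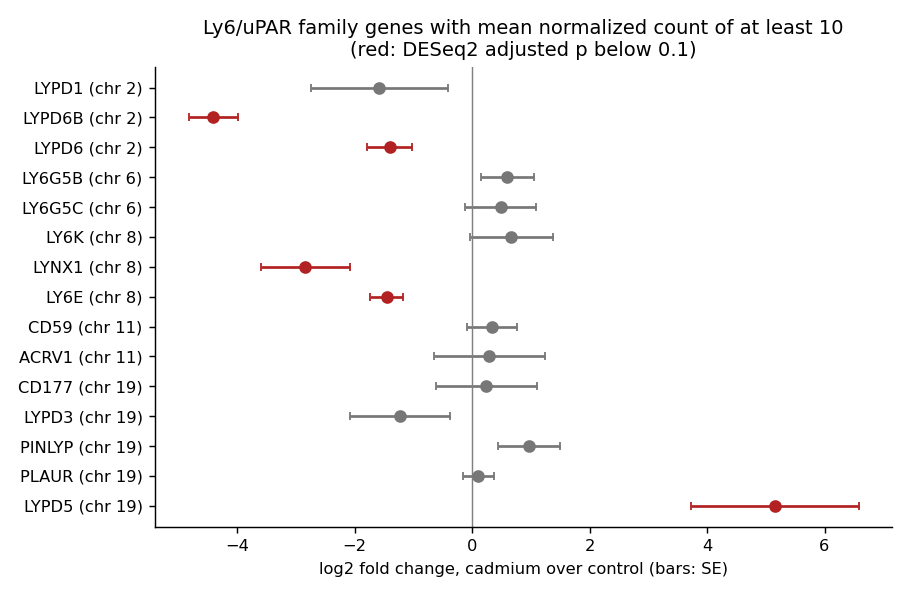
log2 fold change (cadmium over control) with its standard error for the 15 Ly6/uPAR family genes with normalized counts averaging at least 10, ordered by chromosome and position. Red marks genes with a DESeq2 adjusted p-value below 0.1, which are LYPD6B, LYPD6, LYNX1 and LY6E on the lower side and LYPD5 on the higher side.

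The partners of these proteins were next compared, by lists chosen with earlier results of these data known. Nicotinic receptor subunits, the channel proteins on which LYPD6B, LYPD6 and LYNX1 are known to act, were mostly at low counts. Of 16 subunit genes 6 were tested and 0 were called in either direction by DESeq2, with 0 at an unadjusted p-value below 0.05. Over all tested genes 0.534% were called lower and 0.600% higher, and 6.92% had an unadjusted p-value below 0.05 in DESeq2. At those shares nothing is read from 0 calls in lists of this size. CHRNB1, the most abundant, had 3733 and 1440 normalized counts in the controls and 1734 and 1784 in the cadmium libraries, so the cadmium values lay inside the control range. CHRNA7, named for its role, had 24.6 and 22.3 in the controls and 6.97 and 9.87 in the cadmium libraries. Its log2 fold change was -1.48, at an adjusted p in DESeq2 of 0.907. CHRNA10 went the other way, with 36.0 and 45.7 in the controls and 67.7 and 84.9 in the cadmium libraries. The log2 fold change of CHRNA10 was 0.90, at an adjusted p in DESeq2 of 0.887.

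Wnt receptors and antagonists gave a similar count. DESeq2 tested 20 of 28 genes and called 0, with 1 at an unadjusted p-value below 0.05, beside 6.92% of all tested genes. Over the list the median change was 0.07 on the log2 scale. LRP6, the co-receptor on which LYPD6 is known to act, had 2551 and 5104 normalized counts in the controls and 4433 and 4503 in the cadmium libraries. LRP5, the most abundant of the list, had a log2 fold change of -0.19 ± 0.43 (SE).

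In the urokinase system 1 of 16 tested genes was higher and 0 were lower, and 4 had an unadjusted p-value below 0.05. By the unadjusted measure 6.92% of all tested genes passed, and the shares called were 0.600% higher and 0.534% lower. SERPINB2, an inhibitor of urokinase, had 3.79 and 8.51 normalized counts in the controls and 111 and 175 in the cadmium libraries, which gave a log2 change of 4.55 ± 0.71 (SE) and an adjusted p in DESeq2 of 1.78e-07. Both cadmium libraries were far above both controls, whose raw counts were 4 and 8, so SERPINB2 passed the count filter through its cadmium reads. With edgeR the adjusted p was 0.588, and without cadmium 2 SERPINB2 was not called by DESeq2. PLAU, which encodes urokinase and was named for its role, was not called, and its normalized counts were 24741 and 16816 in the controls and 20408 and 21488 in the cadmium libraries. Ligand and receptor genes PLAU and PLAUR thus both stayed within the control range.

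The complement list, which holds the partners and targets of CD59, had 9 of 16 genes tested and 0 called. In DESeq2 1 of them had an unadjusted p-value below 0.05, beside 6.92% of all tested genes. CD55, which like CD59 protects cells from complement, was the most abundant with 8759 and 20124 normalized counts in the controls and 10474 and 12182 in the cadmium libraries. CD55 and CD59 were both lower in control 2 than in control 3. Genes that build and attach the GPI anchor were expressed throughout, with 29 of 31 tested and 0 called by DESeq2. None of these genes had an unadjusted p-value below 0.05 in DESeq2, beside 6.92% of all tested genes. Their median log2 fold change was -0.17, beside -0.03 over 18871 genes averaging at least 10 normalized counts. Of the list 20 genes were below 0 and 9 above. The share of all genes below 0 was not taken, so nothing is read from that split. PIGT, a subunit of the anchor transferase, had a log2 fold change of -0.17 ± 0.27 (SE).

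**Figure D5:**
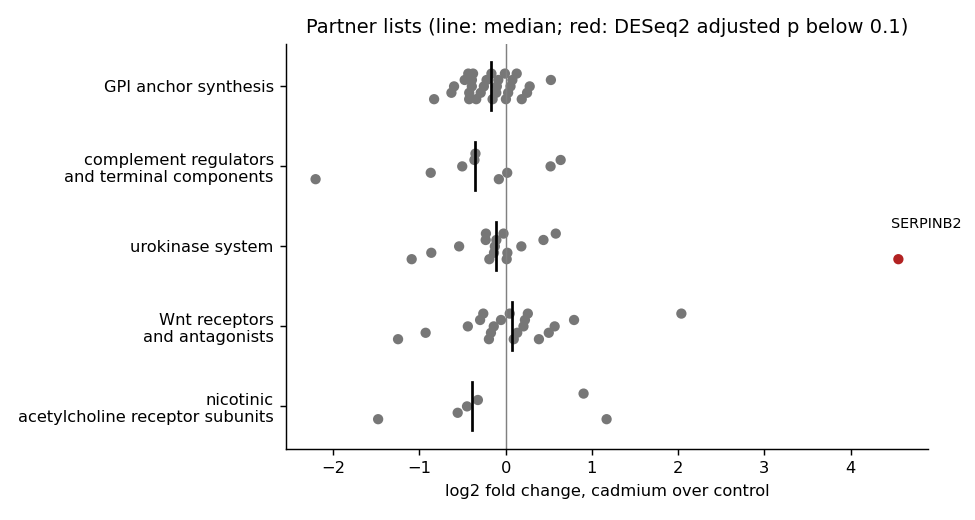
log2 fold change (cadmium over control) of genes with normalized counts averaging at least 10 in 5 lists of partners, with the median of each list as a line and genes called by DESeq2 in red. SERPINB2, at 4.55, is the called gene, and the list medians lie between -0.39 and 0.07.

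The genes whose profile over the 4 libraries lay nearest to that of LYPD6B were ANO2, SNAP25, DIRAS1, CAMSAP3 and LYNX1, in that order. They were ranked among 14356 genes with normalized counts averaging at least 50. Likeness was the Euclidean distance between log2 normalized counts centred on each gene's mean, and it was 0.452 for ANO2 and 1.72 to 1.95 for the others. ANO2, a calcium-activated chloride channel gene, had 250 and 208 normalized counts in the controls and 15.9 and 12.8 in the cadmium libraries. For LY6E the nearest were LTBP3, EPN3, RHOB, MOXD1 and IFIT1, with distances from 0.158 to 0.258. IFIT1, another interferon-induced gene, had 2407 and 3698 normalized counts in the controls and 1142 and 1345 in the cadmium libraries. LYPD6B and LY6E were chosen for their fall in these same libraries, so genes lower in cadmium are found by construction. ANO2, SNAP25, DIRAS1, LYNX1 and EPN3 were below 50 in both cadmium libraries and reached that minimum through their controls. CAMSAP3 had 50.8 and 45.4 in the cadmium libraries. With 4 libraries such likeness is a description of these libraries.

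Calls depended on the tool. By edgeR's quasi-likelihood test 0 of 19241 genes were called, with 1506 at an unadjusted p-value below 0.05, and limma-voom called 0, with 1423. The lowest adjusted p over all genes was 0.494 with edgeR and 0.656 with limma-voom, so none of the 8 genes was called by either.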

How the data were processed

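RNA-seq libraries of 2 control and 2 cadmium-treated MDA-MB-231 cultures were analysed. The authors deposited raw counts of reads for each gene. The authors trimmed adaptors with bbduk, aligned reads to hg38 with hisat2 and counted them over an Ensembl annotation with featureCounts 2.0.1 at default settings, so strand was ignored, reads of several genes or places were dropped and each mate was counted. Exon lengths are also those the authors deposited. The control columns carry the numbers 2 and 3 (A and B in the header command) while the labels say 1 and 2, so they were assigned to the group alone. Symbols matched 61369 identifiers.

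DESeq2 1.42.0 (R 4.3.3, Wald test, two-sided, Benjamini-Hochberg over all tested genes, threshold 0.1, filter at a mean of 7.65) gave the changes, following the study. edgeR 4.0.16 and limma 3.58.1 were among the alternatives. Scripts were tested on simulated data. Intervals cover counting error only, since reads carry no molecular identifiers. Members and lists were chosen with earlier results of these data known. Named genes were the 8 members, up to 4 called genes of each list (otherwise its most abundant gene), the 3 nearest genes on each side of LYPD6B with a mean of at least 50 and the 5 most alike profiles. A neighbour that this rule names is not reported here. Promoter sequences are from RefSeq (GRCh38.p14), which held windows for 6 of the 8 genes.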

Additional observations from a re-analysis of the deposited data

How the results depend on the processing

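No paired analysis was possible because controls are numbered 2 and 3 in the table but 1 and 2 in the labels. Under the 8 other alternatives for each gene (tools, scaling, filters, halved counts, stricter threshold) the log2 fold change of LYPD6B stayed between -4.41 and -4.35, that of LYPD6 between -1.47 and -1.35 and that of LY6E between -1.47 and -1.40. With edgeR and with limma-voom the count of members called lower was 0, as were the lower and higher counts of the family list (4 and 1 with DESeq2) and the higher count of the urokinase list (1 with DESeq2). Halved counts gave 3 lower and 0 higher family genes, with LYNX1 and LYPD5 no longer called.

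Leaving out 1 library leaves a lone sample assumed to vary like the other group, so counts swing. Called members ranged from 1 to 3 lower and 0 to 2 higher, family genes from 1 to 4 lower and 0 to 5 higher, and nicotinic subunits from 0 to 2 lower. Wnt genes ranged from 0 to 4 lower and 0 to 8 higher, urokinase genes from 0 to 4 lower and 0 to 4 higher, complement genes from 0 to 4 lower and 0 to 2 higher, and GPI anchor genes from 0 to 8 lower and 0 to 3 higher. The highest upward counts came without control 3. The difference of LYPD6B from LYPD6 ranged from -3.58 to -2.32, and the median of the LYPD6B neighbours from -0.25 to 0.11. Without control 2 the sign turned for LYPD1 (1.07), LY6K (-0.11), PLAUR (-0.049) and CD59 (-0.17). Their ranges over the libraries left out were -2.47 to 1.07, -0.11 to 2.39, -0.049 to 0.27 and -0.17 to 1.10. The cause of these changes was not tested. LYPD5, LYNX1, LYPD3, LYPD1 and CHRNA7 rest on low counts, which limits their precision.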
